A study of Mus musculus with 20 samples.

Results

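Autosomal transcripts were compared between uninjured lungs of 5 female (XX) and 5 male (XY) Sprague Dawley rats, an outbred laboratory stock. The genes described are the 14476 that lie on chromosomes 1 to 20 and reached at least 0.5 FPKM (fragments per kilobase of transcript per M mapped fragments, M for mega) in at least 5 of the 10 libraries. They were taken from 22845 autosomal genes among the 23799 genes of the deposited table, and 8369 autosomal genes lay under the limit. At the limit itself, 353 genes inside it had a value of 0.5 to under 0.6 FPKM as the fifth highest of the 10 libraries, and 326 genes outside it had one of 0.4 to under 0.5. The 10 animals were the sham arm of a study of bleomycin-induced acute lung injury, which also holds 5 bleomycin females and 5 bleomycin males. The compared groups are therefore sham females and sham males of the same stock, with no transgene or mutation named in the labels. What the sham procedure was, the animals' age and the oestrous stage of the females are not in the labels. The animals were matched on body weight, and a difference in age between the sexes cannot be told apart from sex.

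The lung is held open by elastic fibres and collagen fibrils that fibroblasts, smooth muscle cells and pericytes secrete, and its alveolar and capillary walls rest on basement membranes of type IV collagen, laminin and nidogen. Collagen chains are hydroxylated and folded inside the cell, secreted, trimmed by proteases and cross-linked outside it by lysyl oxidases. Sex steroids act through nuclear receptors, and male and female rats are known to differ in the liver's secreted urinary proteins and in enzymes of steroid and drug metabolism.

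Each library came from a separate animal, with 74.9 to 84.96 M counts in females and 68.6 to 85.3 M in males. The Y-linked genes Kdm5d, Eif2s3y, Uty and Ddx3 had 0 FPKM in all 5 females and were present in all 5 males, as the labels give their sex. Sham male 1 stood apart. On the first principal component of the autosomal genes (24.9% of the variance) females lay at −25.3 to −8.24 and the other males at 10.7 to 45.7. Sham male 1 lay at −11.9, among the females. On the second component (16.2% of the variance) it lay at 45.7, against −24.7 to 16.3 in females and −9.07 to 5.68 in the other males. The mitochondrial share of counts was 5.605 to 7.41% in females and 6.44 to 7.63% in sham males 2 to 5, and 4.42% in sham male 1. Albumin transcripts (Alb), made by liver, were at 50 FPKM or more in 3 libraries, with 61.4 FPKM in sham female 1, 52.3 FPKM in sham male 3 and 333 FPKM in sham male 5, and sham male 3 held 172 FPKM of the skeletal muscle actin Acta1. Sftpc, the surfactant gene that defines alveolar type 2 cells, was abundant in every library, at 7559 to 9634 FPKM in females and 6042 to 7818 FPKM in males.

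Of the gene groups examined, extracellular matrix had the most members that were lower in females. Type I collagen (Col1a1), elastin (Eln) and type III collagen (Col3a1) averaged 30.99 ± 5.95, 108 ± 12.3 and 116 ± 33.3 FPKM in females, against 126 ± 31.2, 365 ± 132 and 331 ± 82.4 FPKM in males (SD, n = 5 each). Fewer genes were higher in females, and these included the endothelial proteoglycan gene Esm1, the glycosyltransferase gene Galnt14, the lysozyme gene Lyz2 of macrophages and the alveolar type 1 cell gene Hopx. Of the 14476 genes, 290 (2.0%) had an adjusted p under 0.05 in edgeR's quasi-likelihood test, 98 of them higher in females (0.677%) and 192 lower (1.33%). The words rose and fell are used below for these genes alone, and always of females relative to males. A gene was called where its log2 fold change, females minus males, was also at least 1 in size, which left 56 genes (0.387%), 10 higher in females (0.0691%) and 46 lower (0.318%). The median log2 fold change was 0.46 over the 98 genes that rose and −0.73 over the 192 that fell, while over all 14476 genes it was 0.00, with 49.7% of genes below 0. In edgeR 2757 of the 14476 genes, both directions together, had an unadjusted p under 0.05. Counts of list members at that limit, given below, are to be read beside this share of all genes.

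The 5 female and 5 male values of a gene did not overlap in 732 genes (5.06%), with females above in 285 (1.97%) and below in 447 (3.09%). Among the called genes 49 of 56 did not overlap, 8 of the 10 higher and 41 of the 46 lower ones, and the 7 that did overlap were Adamts17, Cpz, Nrep, Bpifb1, Scn3b, LOC685680 and Gpbp1l2. The called genes were chosen by their difference in these same libraries, which largely fixes that count, so nothing is read from it. For Sult1c3 and LOC298116, which met the expression limit through the males alone, the lack of overlap was built in. The called genes lay on 19 of the 20 autosomes, none on chromosome 13, with at most 6 on 1 chromosome (chromosomes 2 and 3), and 54 of them were protein-coding in the table. Called genes numbered 51, 37, 50, 38 and 31 without sham females 1 to 5 in turn, and 117, 40, 85, 38 and 30 without sham males 1 to 5. Genes that passed numbered 206, 129, 181, 96 and 97 without sham females 1 to 5, and 1123, 128, 376, 90 and 87 without sham males 1 to 5. The counts were highest without sham male 1, and between 76.9% (without sham male 1) and 90.2% (without sham female 1) of the called genes were lower in females. Without the 3 libraries rich in albumin transcripts, 53 genes were called and 133 passed.

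Of 113 named genes that passed, 47 stayed under 0.05 with each of the 10 libraries left out in turn, here said to hold. The other 66 crossed 0.05 in at least 1 of these fits, with adjusted p up to 0.120. The calls ended numbered 31, 48, 31, 54 and 53 of 113 without sham females 1 to 5, and 1, 48, 12, 57 and 58 without sham males 1 to 5. The sign of the log2 fold change was the same in all 10 fits for all 113 genes. For most genes below that did not hold, the highest of the 10 adjusted p-values is given with the library left out.

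Of 37 tested genes of the fibrillar and interstitial matrix, 24 fell and 0 rose, 13 of them were called lower, and 35 of the 37 had log2 fold changes below 0. The median over the list was −0.85, beside 0.00 for all genes, and no member rose at an unadjusted p under 0.05 in edgeR or at an adjusted p under 0.05 in DESeq2, which had 28 falls. Col1a1 (ENSRNOG00000003897, chromosome 10, 79883622 to 79900624 as the table gives it), which encodes the main chain of type I collagen, stood at 31.7, 29.6, 40.8, 26.7 and 26.1 FPKM in females 1 to 5, against 117, 151, 75.6, 144 and 144 FPKM in males 1 to 5. All 5 females lay below all 5 males, and sham male 3 was the lowest male. Its log2 fold change was −2.02 ± 0.190 (SE), the largest fall in the list, with adjusted p = 0.000727. Its partner chain in type I collagen, Col1a2, averaged 56.7 ± 14.2 FPKM in females and 143 ± 26.97 FPKM in males (−1.33 ± 0.177, adjusted p = 0.00653). Col3a1 (ENSRNOG00000003357, chromosome 9, 47374593 to 47410547), the collagen of fine reticular fibrils, had 116, 98.97, 174, 94.6 and 98.4 FPKM in females, against 376, 356, 193, 325 and 404 FPKM in males. Here sham female 3 and sham male 3 came within 20 FPKM of each other, and the groups still did not overlap (−1.50 ± 0.215, adjusted p = 0.00760). These 3 genes held.

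Elastic fibre genes fell as well. Eln (ENSRNOG00000001469, chromosome 12, 21968544 to 22011928), the elastic protein itself, had 112, 99.1, 128, 99.03 and 104 FPKM in females, against 328, 341, 185, 429 and 542 FPKM in males. The female values kept within a narrow range and the male values spread widely, from sham male 3 up to sham male 5 (−1.76 ± 0.240, adjusted p = 0.00688). Fbn1, the microfibril protein on which elastin is laid down, had 8.07, 5.71, 7.00, 5.27 and 5.25 FPKM in females, against 18.8, 14.5, 11.1, 14.98 and 19.2 FPKM in males, again with sham male 3 lowest (−1.33 ± 0.156, adjusted p = 0.00343). Fbln5 (−0.73, adjusted p = 0.0214) and Fbln2 (−0.86, 0.00402), which link microfibrils and elastin, and Ltbp2 (−1.02, 0.00759), another microfibril component, also fell. The cross-linking enzymes Loxl2 (−1.23, 0.00506), Loxl1 (−0.78, 0.0214) and Lox (−0.76, 0.0294) fell, and Loxl2 averaged 4.41 ± 0.956 FPKM in females and 10.3 ± 1.67 FPKM in males. Eln, Fbn1, Fbln2, Ltbp2 and Loxl2 held, while the adjusted p reached 0.0604 for Fbln5 (without sham male 5), 0.0641 for Loxl1 (without sham female 5) and 0.0847 for Lox (without sham female 4).

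Fibronectin and some of the minor collagens and glycoproteins fell too. Fn1 (ENSRNOG00000014288, chromosome 9, 73196044 to 73264678), which cells assemble into the first fibrils of a matrix, had 40.9, 29.6, 41.00, 32.8 and 34.5 FPKM in females, against 88.99, 75.02, 58.4, 80.4 and 90.5 FPKM in males. No male library reached down to a female one (−1.13 ± 0.128, adjusted p = 0.00262), and the call held. The fibril-nucleating collagens Col5a1 (−1.04, 0.00554), Col5a2 (−0.79, 0.0217) and Col5a3 (−1.15, 0.0423) fell, as did the beaded-filament collagens Col6a1 (−0.93, 0.0175), Col6a2 (−1.03, 0.00688) and Col6a3 (−0.81, 0.0232). Of these collagens Col5a1 and Col6a2 held, and the adjusted p reached 0.0670 for Col5a2 (without sham female 5), 0.107 for Col5a3 (without sham female 4), 0.0530 for Col6a1 (without sham female 5) and 0.0710 for Col6a3 (without sham female 5). The other members that fell were Col8a1, Fbln1, the proteoglycan Vcan, the glycoproteins Tnc and Sparc, and Postn. Tenascin C (Tnc) averaged 3.16 ± 1.07 FPKM in females and 8.99 ± 2.91 FPKM in males (−1.50 ± 0.268, adjusted p = 0.0211), and its adjusted p reached 0.0568 without sham male 5. Other members did not pass, among them the proteoglycan decorin (Dcn), which binds collagen fibrils and stood at −0.10 (adjusted p = 0.838), and also Col12a1, Col14a1, Fmod, Lum, Ltbp1, Thbs1, Thbs2, Mfap2, Mfap4 and Mfap5. The 2 members above 0, Col16a1 (0.06, adjusted p = 0.818) and Ogn (0.03, 0.946), did not pass either.

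**Figure D1:**
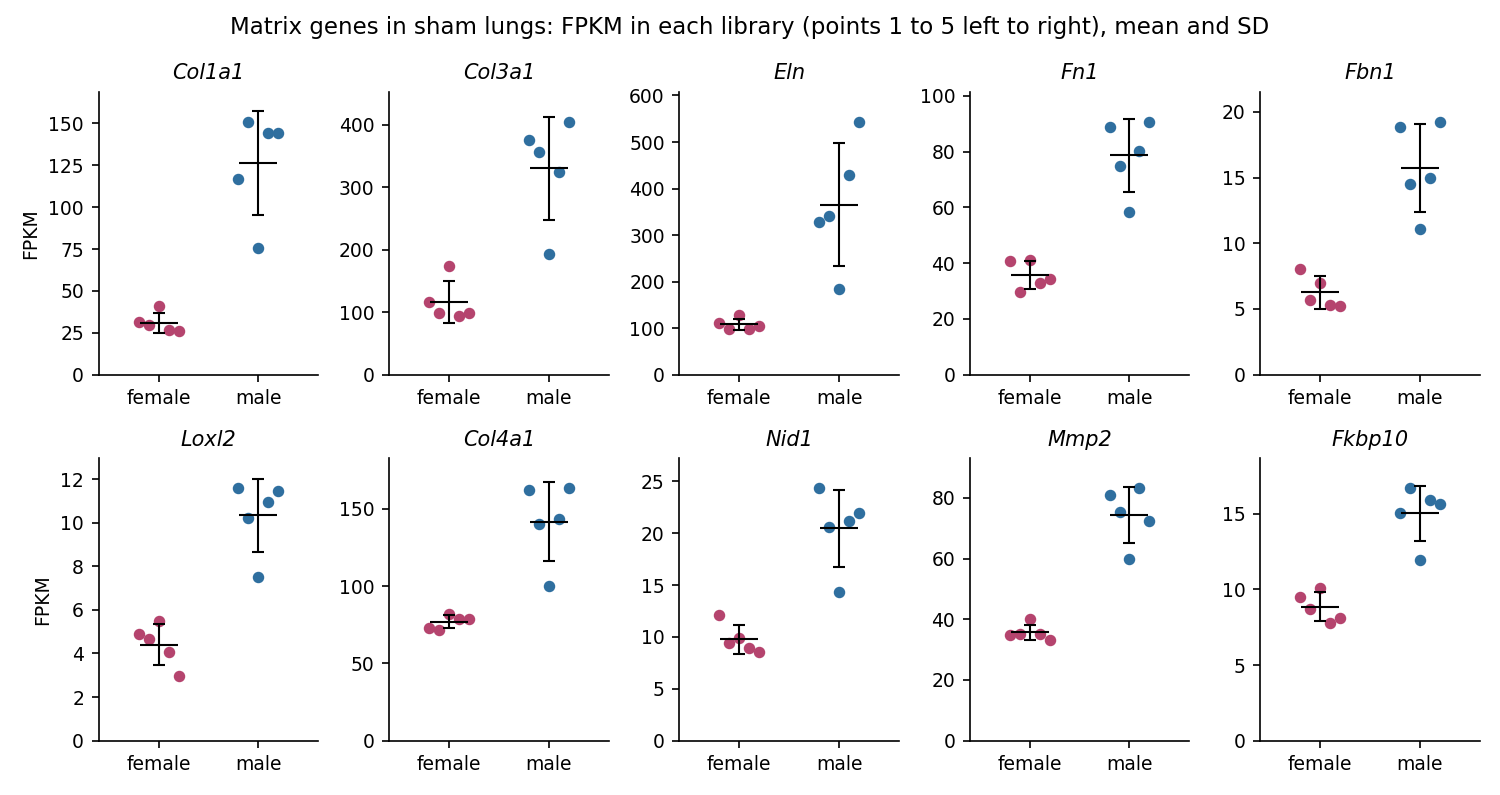
FPKM of 10 matrix genes in each sham library, with females left of males in every panel, points for libraries 1 to 5 from left to right, and black bars for the mean and SD (n = 5). All 5 females lie below all 5 males in each panel, and sham male 3, the middle blue point, is the lowest male throughout.

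The position of sham male 3 was shared across the list. It was the lowest male in 23 of the 24 genes that fell, while sham female 5 was the lowest female in 15 and sham female 3 the highest in 13. Summed over the list, matrix transcripts came to 2411, 2185, 2694, 2438 and 2267 FPKM in females 1 to 5, against 4868, 4390.2, 2823, 4464 and 4933 FPKM in males 1 to 5. These sums took in 1 list gene that is not autosomal and was not tested. The female and male sums did not overlap, and sham male 3 was nearer to the highest female than to the next male. Sham male 1, which lay among the females on the first principal component, had the second highest matrix sum. The number of list members that fell was 20, 16, 21, 17 and 16 without sham females 1 to 5, and 24, 16, 27, 13 and 15 without sham males 1 to 5. It was 11 when all 20 libraries shared 1 fit, and 11 with the replicate number as a block. It was 12 with the summed level of liver genes (listed with albumin) as a covariate. In tissue RNA of this kind, fewer cells of a type and less RNA per cell cannot be told apart. Summed fibroblast markers, 1 of them not autosomal, ran over 481 to 599 FPKM in females and 511 to 733 FPKM in males. Summed smooth muscle and myofibroblast markers ran over 239.7 to 313 FPKM in females and 294 to 440.0 FPKM in males. Of the fibroblast markers, Pdgfra, a receptor of alveolar fibroblasts, rose (0.43 ± 0.0917, adjusted p = 0.0398) and Clec3b fell (−0.54 ± 0.123, adjusted p = 0.0487), with 4 of 12 above 0. Leaving out 1 library ended either call in 7 of 10 fits, with an adjusted p of up to 0.102 for Pdgfra (without sham female 4) and 0.106 for Clec3b (without sham male 4). Their part in the matrix difference was not tested.

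Basement membrane genes fell by smaller amounts. Of 20 tested, 9 fell, 3 of them called, and all 20 had log2 fold changes below 0, with a median of −0.47. None rose at an unadjusted p under 0.05 in edgeR or in DESeq2. The type IV collagen genes that form the mesh of most basement membranes, Col4a1 and Col4a2, lie side by side on chromosome 16. Col4a1 had 72.9, 71.8, 81.6, 78.7 and 78.8 FPKM in females, against 162, 140.1, 99.9, 143 and 163 FPKM in males, without overlap (−0.87 ± 0.123, adjusted p = 0.00746), and Col4a2 had a log2 fold change of −0.90 ± 0.123 (adjusted p = 0.00688). Nidogen 1 (Nid1), which links the collagen and laminin networks, had 12.1, 9.40, 9.89, 8.93 and 8.52 FPKM in females, against 24.3, 20.6, 14.3, 21.1 and 21.96 FPKM in males (−1.06 ± 0.123, adjusted p = 0.00326). These 3 held, as did laminin alpha 2 (Lama2, −0.54 ± 0.0744, adjusted p = 0.00688). Nid2, Col15a1, Col18a1, Lamc1 and the perlecan gene Hspg2 fell too, Col15a1 by the most (−1.41 ± 0.266, adjusted p = 0.0251, or 0.0665 without sham female 4). Lama3, a laminin gene of epithelial basement membrane, did not pass (log2 fold change −0.15, adjusted p = 0.330), nor did Col4a3 and Col4a4, which are the type IV chains of the alveolar wall. Sham male 3 was again the lowest male in all 9 genes that fell, and the number that fell was 9, 7, 7, 5 and 7 without sham females 1 to 5, and 10, 8, 11, 6 and 6 without sham males 1 to 5. It was 5 in the fit over all 20 libraries, 6 with the replicate number as a block and 4 with the liver covariate.

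Some markers of pericytes, the contractile cells that wrap capillaries, fell as well. Of 9 tested, 4 fell (Notch3, Rgs5, Abcc9 and Postn, the last also a matrix gene) and none rose, with 8 of 9 below 0 and a median of −0.72, and DESeq2 had 6 falls and no rise. Notch3 had 9.97, 8.06, 8.68, 8.43 and 6.90 FPKM in females, against 18.95, 15.4, 11.4, 14.9 and 16.2 FPKM in males (−0.86 ± 0.113, adjusted p = 0.00594). Rgs5, a regulator of G protein signals, had 19.1, 12.8, 15.5, 12.9 and 11.1 FPKM in females, against 27.9, 26.6, 21.1, 28.6 and 30.03 FPKM in males (−0.91 ± 0.135, adjusted p = 0.00879). Neither gene overlapped, and both held, while the number of list members that fell was 2, 3, 4, 3 and 2 without sham females 1 to 5, and 5, 2, 5, 2 and 2 without sham males 1 to 5. The pericyte receptor Pdgfrb (−0.43, adjusted p = 0.101) and Cspg4 (−0.13, 0.541) did not pass. In smooth muscle only Smtn, a filament-binding protein, fell of 10 tested genes (−0.56 ± 0.108, adjusted p = 0.0266, or 0.0755 without sham female 5). All 10 were below 0, and smooth muscle actin (Acta2) averaged 58.1 ± 6.64 FPKM in females and 89.5 ± 19.4 FPKM in males (adjusted p = 0.0689).

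Matrix proteases and genes of collagen processing were described with 2 lists added after the values had been seen. Of 26 matrix proteases and inhibitors, 5 fell (Mmp2, Mmp14, Adamts12, Adamts17 and Adamts9) and none rose, and DESeq2 had 8 falls and no rise. Gelatinase A (Mmp2, ENSRNOG00000016695, chromosome 19, 14154657 to 14182870), which cleaves denatured collagen and type IV collagen, had 34.8, 35.2, 39.9, 35.2 and 33.2 FPKM in females, against 81.02, 75.3, 59.8, 83.2 and 72.4 FPKM in males. The female values lay within 7 FPKM of each other and far below every male, and the log2 fold change of −1.05 ± 0.0879 had the smallest p of all autosomal genes (adjusted p = 0.000240). Mmp14, the membrane protease that activates the Mmp2 precursor, averaged 19.01 ± 2.93 FPKM in females and 29.7 ± 3.45 FPKM in males (−0.64 ± 0.0970, adjusted p = 0.0104). Both held. Their inhibitor Timp2 (0.06, adjusted p = 0.818) did not pass. Adamts12 held too, while Adamts17 reached 0.0613 (without sham female 5) and Adamts9 0.0805 (without sham female 2). Of the protease list, 3 to 6 genes fell when 1 library was left out. Of 26 genes of collagen processing and secretion, 4 fell: the prolyl isomerases Fkbp10 (−0.76, 0.00544) and Ppic (−0.67, 0.00544), the procollagen protease Adamts2 (−0.63, 0.0220) and the hydroxylase P3h3 (−0.45, 0.0222). Fkbp10 and Ppic held, and Adamts2 reached 0.0655 (without sham female 4) and P3h3 0.0668 (without sham female 4). The general collagen chaperone Serpinh1 (−0.36, 0.143) and P4hb, a subunit of the prolyl hydroxylase (−0.17, 0.382), did not pass. No gene of this list rose in edgeR, where 3 were higher at an unadjusted p under 0.05, and 2 rose in DESeq2.

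Together the fibrillar and basement membrane lists held 16 of the 46 called genes that were lower in females, among 57 tested genes. With the proteases and processing genes 19 of the 46 were in a matrix list, and 27 were not. Secreted regulators of TGF-beta, BMP and WNT signalling, a list likewise added after the values had been seen, contributed 4 falls and no rise among 28 genes, of which 8 lay above 0. At an unadjusted p under 0.05 there were 2 higher and 13 lower, DESeq2 had 2 rises and 9 falls, and edgeR had 0 to 2 rises and 1 to 6 falls when 1 library was left out. The 4 were the follistatin-like Fstl1 (−0.80 ± 0.110, adjusted p = 0.00688), the BMP-binding Bmper (−1.01 ± 0.183, 0.0214) and the ligands Bmp2 (−0.89 ± 0.194, 0.0420) and Wnt5a (−0.80 ± 0.179, 0.0465). Fstl1 had 25.7, 25.8, 28.2, 24.7 and 24.8 FPKM in females, against 53.01, 52.9, 32.1, 46.3 and 42.1 FPKM in males, and it alone of the 4 held, while Bmper reached 0.0598 (without sham female 4), Bmp2 0.0946 (without sham male 4) and Wnt5a 0.117 (without sham female 5). Tgfb1, which encodes TGF-beta 1, stood at −0.04 (adjusted p = 0.772).

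Retinoid genes formed a smaller set, in a list added after the values had been seen. Retinoic acid, made from vitamin A, is known to act in alveolar formation. Of 18 tested genes 3 fell and none rose, and DESeq2 had the same numbers. Stra6, the membrane receptor that takes retinol from its carrier protein, had 0.418, 0.527, 0.320, 0.332 and 0.349 FPKM in females, against 0.788, 1.11, 1.69, 2.11 and 1.36 FPKM in males, a level near the expression limit in females (−1.86 ± 0.286, adjusted p = 0.0108). Cyp26b1, which degrades retinoic acid, had 3.22, 3.75, 4.53, 4.93 and 2.24 FPKM in females, against 13.2, 11.04, 7.85, 13.5 and 6.52 FPKM in males (−1.47 ± 0.240, adjusted p = 0.0158). Aldh1a3, which makes retinoic acid, averaged 8.92 ± 1.70 FPKM in females and 15.8 ± 3.56 FPKM in males (−0.82 ± 0.149, adjusted p = 0.0214). None of the 3 overlapped between the sexes. The retinoic acid receptors Rara (−0.08, 0.511), Rarb (−0.10, 0.542) and Rarg (0.20, 0.424) did not pass.

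**Figure D2:**
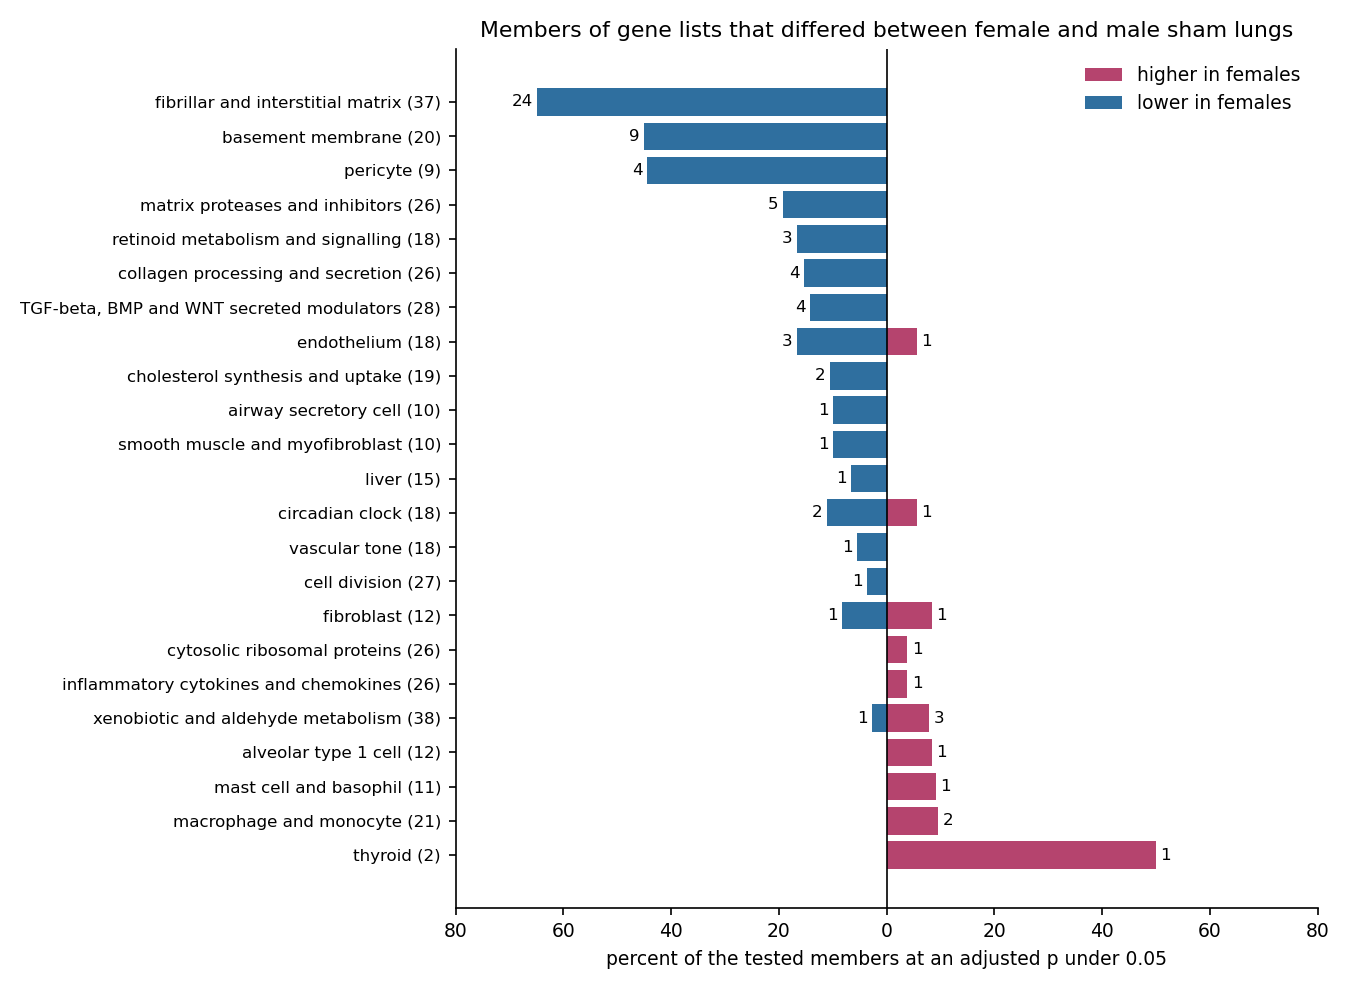
Percent of tested members at an adjusted p under 0.05 in each gene list with at least 1 such member, right of 0 for higher and left of 0 for lower in females, with the number of genes beside the bar and the number tested after the name. The fibrillar matrix, basement membrane and pericyte lists have the longest bars to the left, and the thyroid bar stands for 1 gene of 2.

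Outside the matrix, the genes with the largest falls came from unrelated families. Sult1c3, a sulfotransferase, had 0.141, 0.463, 0.246, 0.335 and 0.183 FPKM in females, against 0.760, 1.46, 2.13, 4.24 and 2.36 FPKM in males (−2.99 ± 0.495, adjusted p = 0.0167). Itga2, the collagen-binding integrin chain, had 0.512, 0.454, 0.5004, 0.503 and 0.319 FPKM in females, against 2.05, 1.51, 0.948, 1.34 and 1.49 FPKM in males (−1.67 ± 0.202, adjusted p = 0.00402). C1qtnf6, a secreted C1q-related protein, had 1.57, 1.17, 1.47, 1.21 and 1.28 FPKM in females, against 4.14, 3.64, 2.94, 4.72 and 4.59 FPKM in males (−1.58 ± 0.159, adjusted p = 0.00108). These low-abundance genes held, as did Fndc1, a protein with fibronectin repeats (−1.75 ± 0.292, adjusted p = 0.0175). Itga2 and C1qtnf6 did not overlap between the sexes. Sult1c3 did not either, but it met the expression limit of 0.5 FPKM through the males alone, so its lack of overlap was built in. Called genes in none of the lists, named after their values were seen, included Serpinf1, a secreted inhibitor of vessel growth (−1.32 ± 0.193, adjusted p = 0.00843), the neural adhesion gene Opcml (−1.43 ± 0.201, 0.00746), and the actin-binding genes Fscn1 (−1.10 ± 0.172, 0.0123) and Dbn1 (−1.06 ± 0.171, 0.0150), which also held. The WNT-binding carboxypeptidase gene Cpz averaged 2.97 ± 1.07 FPKM in females and 8.62 ± 2.50 FPKM in males (−1.53 ± 0.275, adjusted p = 0.0214), with sham female 4 at 4.73 FPKM just above sham male 3 at 4.68 FPKM, and did not hold (0.0630 without sham female 5). Bpifb1, a secreted defence protein of airway epithelium, had 131, 99.05, 108, 93.4 and 115 FPKM in females, against 97.03, 377, 371, 488 and 436 FPKM in males. Sham male 1 lay within the female range and the other males well above it (−1.71 ± 0.351, adjusted p = 0.0365, or 0.0964 without sham female 4).

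The other airway genes shared that library. Summed secretory cell markers came to 27264, 39064, 33872, 33528 and 42504 FPKM in females 1 to 5, against 19692, 45755, 38186, 44531 and 40419 FPKM in males 1 to 5, while summed ciliated cell markers came to 932, 1148, 1069.5, 1043 and 1215 FPKM in females 1 to 5, against 685, 1061, 1233, 1201 and 1086 FPKM in males 1 to 5. Sham male 1 had the lowest sum of all 10 libraries in both lists. Of 10 secretory genes only Bpifb1 fell and none rose, and of 15 ciliated genes none passed (none higher and 1 lower at an unadjusted p under 0.05, 0 in DESeq2). Without sham male 1, 5 secretory and 8 ciliated genes fell. Muc5b, an airway mucin, averaged 16.97 ± 4.57 FPKM in females and 35.1 ± 17.3 FPKM in males with all libraries (adjusted p = 0.188).

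The largest rise among named genes was that of Galnt14, which starts O-linked glycan chains on proteins. It had 1.33, 1.35, 1.28, 1.56 and 2.21 FPKM in females, against 0.520, 0.213, 0.417, 0.0577 and 0.509 FPKM in males. Every female lay above every male, but at levels close to 1 FPKM (2.18 ± 0.458, adjusted p = 0.0366, or 0.0921 without sham female 5). Esm1 (ENSRNOG00000010797, chromosome 2, 44876067 to 44884804), also called endocan, is a proteoglycan secreted by endothelium. It had 16.9, 12.1, 12.7, 7.95 and 9.01 FPKM in females, against 3.000, 2.35, 2.67, 5.20 and 3.72 FPKM in males. The lowest female, sham female 4, lay above the highest male, sham male 4 (1.78 ± 0.252, adjusted p = 0.00759), and the call held. Sgsm1, a regulator of small GTPases, averaged 1.24 ± 0.434 FPKM in females and 0.421 ± 0.0921 FPKM in males (1.58 ± 0.245, adjusted p = 0.0119), and Tmem255b, a membrane protein, 3.37 ± 0.418 FPKM in females and 1.66 ± 0.219 FPKM in males (1.02 ± 0.148, adjusted p = 0.00787), and both held. The transcription factor Pax8, below 1 FPKM in every library, was called higher (1.48 ± 0.290, adjusted p = 0.0277, or 0.0761 without sham female 5). It had been listed as a thyroid marker, and Tshr, the other thyroid gene tested, stood at 0.17 ± 0.113 (adjusted p = 0.454). Among the 8 rises with the smallest p, Synm, an intermediate filament protein, had 31.2, 28.4, 28.7, 29.7 and 26.6 FPKM in females, against 24.9, 22.7, 23.2, 21.4 and 20.97 FPKM in males, a small difference with little spread (0.36 ± 0.0495, adjusted p = 0.00688). Hnrnph3, a splicing protein (0.42 ± 0.0663, 0.0127), and the ribosomal Rps29 (0.46 ± 0.0747, 0.0158) were alike in size, and all 3 held.

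**Figure D3:**
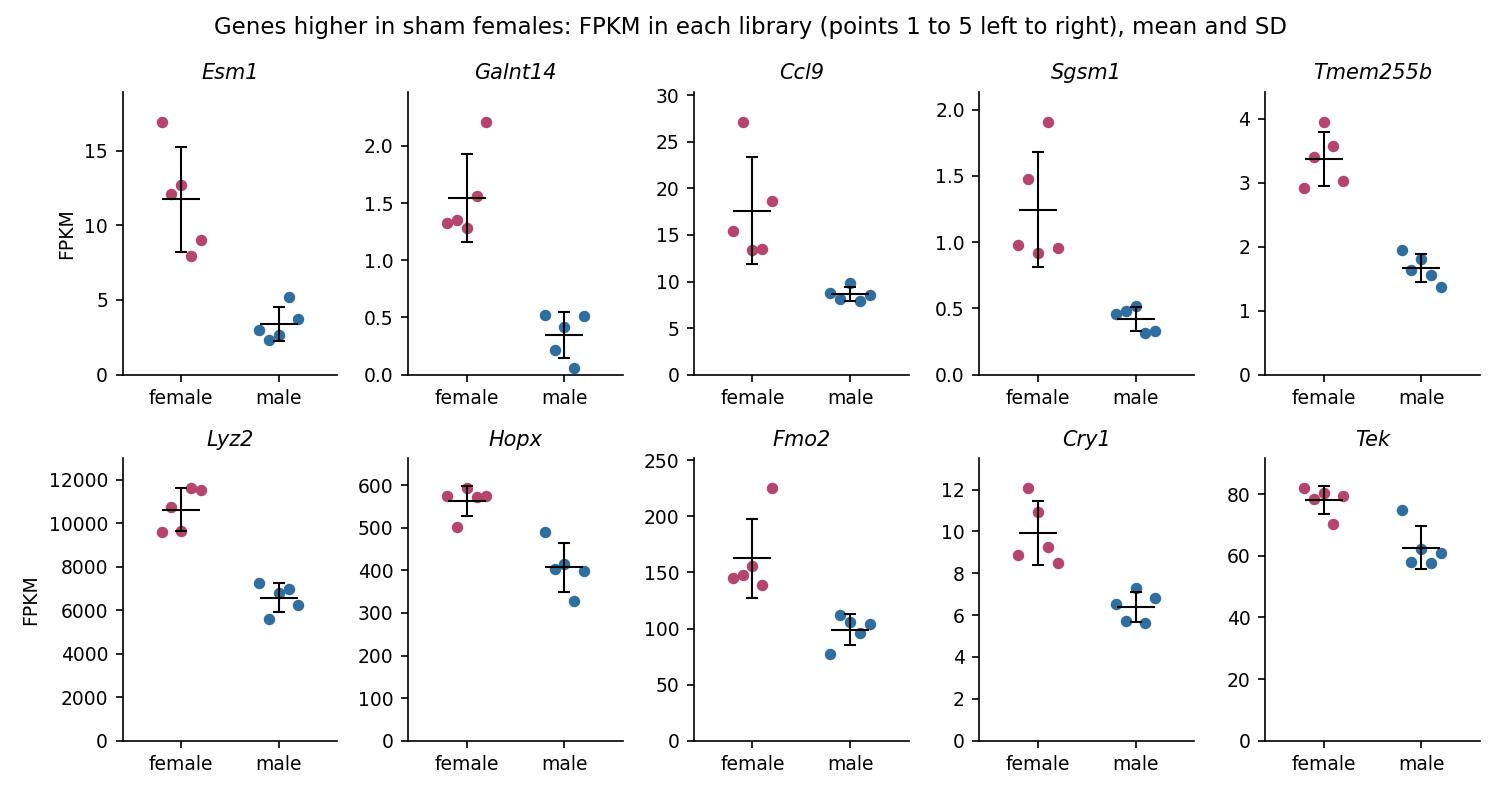
FPKM of 10 genes that rose, in each sham library, with females left of males, points for libraries 1 to 5 from left to right, and black bars for the mean and SD (n = 5). Females lie above all males in 9 panels, and in the last, Tek, sham female 4 lies below sham male 1.

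Of the macrophage and monocyte genes 2 rose in females, Lyz2 and Mertk. Lyz2, the lysozyme of macrophages and also of alveolar epithelium, had 9585, 10739, 9633, 11609.9 and 11537 FPKM in females, against 7248, 5615, 6809, 6987 and 6219 FPKM in males. The lowest female, sham female 1, lay well above the highest male, sham male 1 (0.70 ± 0.119, adjusted p = 0.0175, or 0.0545 without sham male 5). Mertk, the receptor with which macrophages clear dying cells, had 6.88, 9.47, 7.10, 8.24 and 7.06 FPKM in females, against 6.30, 5.95, 5.87, 5.67 and 4.97 FPKM in males (0.44 ± 0.0965, adjusted p = 0.0439, or 0.108 without sham female 4). These were the 2 of 21 tested macrophage and monocyte genes that rose, none fell, and 13 lay above 0, with a median of 0.37. At an unadjusted p under 0.05 there were 8 higher and 2 lower, and DESeq2 had 7 rises and 1 fall. No gene of the list rose without sham female 4, without sham male 5, without the 3 libraries rich in Alb transcripts, with the liver list as a covariate, or in 1 fit over all 20 libraries, and up to 4 rose in the other fits in edgeR. The complement gene C1qc (−0.42, adjusted p = 0.259) and Adgre1 (−0.98, 0.0762) were among those below 0. The CC chemokine Ccl9 had 15.5, 27.1, 13.3, 13.5 and 18.6 FPKM in females, against 8.79, 8.12, 9.84, 7.86 and 8.53 FPKM in males, without overlap (1.03 ± 0.186, adjusted p = 0.0213, or 0.0603 without sham female 5), and the interleukin gene Il18 rose by a smaller amount (0.64 ± 0.125, adjusted p = 0.0277, or 0.0791 without sham female 5).

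Other cell type lists held few genes that passed. In endothelium Tek, the angiopoietin receptor, rose (0.33 ± 0.0695, adjusted p = 0.0398), while its relative Tie1 (−0.43 ± 0.0886, 0.0346), the junction cadherin Cdh5 (−0.46 ± 0.0839, 0.0217) and the clotting protein Vwf fell. Vwf had 55.7, 59.4, 55.1, 54.98 and 54.04 FPKM in females, against 79.3, 72.5, 77.1, 77.8 and 89.01 FPKM in males, and was the one of the 4 that held (−0.50 ± 0.0759, adjusted p = 0.0104). The others reached 0.102 (Tek, without sham male 4), 0.0933 (Tie1, without sham female 4) and 0.0641 (Cdh5, without sham female 5). The other 14 of 18 endothelial genes did not pass, among them the junction protein Pecam1 (−0.20, 0.442). Among 12 alveolar type 1 cell genes, Hopx rose. It had 575, 503, 593, 573 and 574 FPKM in females, against 491, 403, 415, 327 and 398 FPKM in males, with the lowest female just above the highest male (0.48 ± 0.0887, adjusted p = 0.0217, or 0.0632 without sham female 4). The alveolar type 2 list had all 14 log2 fold changes above 0 with a median of 0.15, and the T and NK cell list 19 of 20 with a median of 0.26. In neither did a gene pass in edgeR or DESeq2, with 3 and 1 higher at an unadjusted p under 0.05. All 8 red cell genes lay below 0 and none passed (5 lower at an unadjusted p under 0.05, 3 in DESeq2). The alpha and beta globin genes took 0.336 ± 0.107% of counts in females and 0.608 ± 0.160% in males (SD, n = 5 each), a difference of −0.27 percentage points (exact two-sided permutation test, p = 0.0238).

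Metabolic and housekeeping lists showed small and mostly unresolved differences. Of the oxygenases, Fmo2, Fmo1 and Cyp4b1 rose among 38 xenobiotic genes, and Aldh1a3 fell. Fmo2, a gene of the flavin monooxygenase family, had 145, 148, 156, 139 and 225 FPKM in females, against 76.96, 112, 106, 96.01 and 104 FPKM in males, without overlap (0.72 ± 0.161, adjusted p = 0.0456, or 0.104 without sham male 4). Fmo1 (0.59 ± 0.130, 0.0456) and Cyp4b1 (0.65 ± 0.148, 0.0487) were as close to the threshold, and reached 0.108 (without sham female 4) and 0.120 (without sham female 5). The drug-metabolising Cyp2b1 (0.40, 0.254), Cyp2e1 (0.41, 0.407) and Cyp2a3 (−0.37, 0.620) did not pass. All 19 cholesterol genes were below 0 with a median of −0.43. Only 2 fell in edgeR and none rose (at an unadjusted p under 0.05, 13 lower and none higher; in DESeq2, 9 lower), and 0 to 6 fell when 1 library was left out. Of them Hmgcs1, an early enzyme of the pathway, averaged 13.6 ± 2.15 FPKM in females and 24.9 ± 7.36 FPKM in males and fell (−0.87 ± 0.191, adjusted p = 0.0439), as did Dhcr7 (−0.84 ± 0.185, 0.0441). They reached 0.114 (without sham female 5) and 0.0995 (without sham female 5). Of 26 cytosolic ribosomal protein genes on the list 25 were above 0 with a median of 0.15, and Rpl23 alone rose (0.29 ± 0.0638, adjusted p = 0.0458, or 0.110 without sham male 4).

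Few clock and cell division genes passed in edgeR. In the circadian list, Nr1d2, a repressor of the clock loop, had 8.61, 5.69, 5.57, 8.68 and 8.41 FPKM in females, against 14.1, 12.8, 12.7, 16.1 and 17.6 FPKM in males, without overlap (−0.98 ± 0.167, adjusted p = 0.0175, or 0.0502 without sham male 4). Per3, another repressor, fell (−0.67 ± 0.122, 0.0214, or 0.0625 without sham female 5) and Cry1, a repressor that peaks at another phase, rose (0.63 ± 0.116, 0.0215, or 0.0610 without sham male 4). In 5 of 10 fits that left out 1 library Per3 did not pass, and in 4 Cry1 did not. The other 15 of 18 did not pass, Clock among them (0.09, 0.428). At an unadjusted p under 0.05, 3 clock genes were higher and 5 lower, and DESeq2 had 3 rises and 4 falls. The hour of tissue collection is not in the labels. All 27 cell division genes tested were below 0, with a median of −0.40. Only the mitotic kinase gene Plk1 fell and none rose (at an unadjusted p under 0.05, 12 lower and none higher; in DESeq2, 5 lower). Plk1 had 1.88, 1.88, 2.09, 1.95 and 1.45 FPKM in females, against 3.51, 3.62, 2.53, 3.79 and 2.67 FPKM in males (−0.79 ± 0.149, adjusted p = 0.0226), did not overlap, and reached 0.0625 without sham female 5. In vascular tone, Pde5a, which breaks down cyclic GMP, fell (−0.82 ± 0.160, 0.0269, or 0.0692 without sham female 2), and the other 17 genes did not pass. Of the 18 vascular tone genes 15 were below 0. At an unadjusted p under 0.05, 6 were lower and none higher, and DESeq2 had 5 falls and no rise.

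The oestrogen and progesterone receptor genes lay under the expression limit and were not tested. Esr1, an oestrogen receptor gene, had 0.174, 0.167, 0.0605, 0.194 and 0.0789 FPKM in females, against 0.135, 0.160, 0.115, 0.195 and 0.229 FPKM in males. Esr2, the other oestrogen receptor, ran from 0 to 0.106 FPKM in females and 0 to 0.227 FPKM in males, and the progesterone receptor Pgr from 0.231 to 0.498 FPKM in females and 0.157 to 0.343 FPKM in males. Of 26 tested autosomal genes of steroid receptors and steroid metabolism none passed in edgeR (2 higher and 3 lower at an unadjusted p under 0.05), while DESeq2 had 1 rise and 2 falls. The nearest to the threshold was Hsd11b2, which inactivates corticosterone, with 2.40 ± 0.290 FPKM in females and 3.94 ± 0.985 FPKM in males (−0.71 ± 0.164, adjusted p = 0.0527). In all, 25 of 48 lists had no member that passed in edgeR, among them interferon response, MHC class II presentation, B and plasma cell, neutrophil, p53 targets, imprinted genes and respiratory chain subunits. Each of these 25 had 0 to 4 members higher and 0 to 5 lower at an unadjusted p under 0.05, and 0 to 3 rises and 0 to 3 falls in DESeq2.

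Several called genes share their place or their name with another entry of the table, and reads can be divided between such entries. Mrps17, a mitochondrial ribosomal protein, has 2 entries whose spans overlap on the same strand of chromosome 12. The called one (26948730 to 26951737 as the table gives it) had 0.617, 0.694, 0.653, 0.898 and 0.595 FPKM in females, against 4.89, 3.67, 2.13, 4.39 and 5.68 FPKM in males (−2.57 ± 0.262, adjusted p = 0.00108). The other (26948347 to 26951809) had 19.05, 15.9, 19.5, 14.8 and 15.9 FPKM in females, against 12.3, 15.2, 15.5, 11.8 and 13.5 FPKM in males. It overlapped between the sexes and did not pass (0.32, adjusted p = 0.126). The sum of the 2 entries was 17.7 ± 2.01 FPKM in females and 17.8 ± 1.26 FPKM in males. Etfb, a subunit of the electron transfer flavoprotein, lies within the span of Vsig10l on the same strand of chromosome 1, and the pair moved in opposite directions. Etfb had 14.4, 13.4, 13.8, 16.3 and 27.4 FPKM in females, against 33.97, 38.96, 30.01, 37.3 and 34.3 FPKM in males (−1.02 ± 0.203, adjusted p = 0.0302, or 0.0832 without sham female 4). Vsig10l had 14.1, 11.5, 12.4, 13.2 and 11.7 FPKM in females, against 6.53, 6.14, 5.59, 7.54 and 6.75 FPKM in males (0.95 ± 0.0935, adjusted p = 0.000971), the smallest p of any gene higher in females.

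Adgrl2, an adhesion receptor, has 2 entries with the same start and end on chromosome 2. The called entry had 1.16, 0.503, 1.19, 1.71 and 1.01 FPKM in females, against 7.48, 6.52, 14.1, 1.71 and 2.87 FPKM in males (−2.53 ± 0.538, adjusted p = 0.0439, or 0.111 without sham female 5). The other entry had 10.3, 9.77, 10.1, 9.19 and 8.73 FPKM in females, against 5.40, 6.06, 2.42, 10.3 and 11.1 FPKM in males. Sham female 4 (1.706) and sham male 4 (1.710) all but met in the called entry. Among males the entries ran in nearly opposite order, and sham male 3 was highest in the called entry and lowest in the other. Uchl3, a ubiquitin hydrolase, has an entry on chromosome 3 that fell (−1.01 ± 0.213, adjusted p = 0.0366, or 0.0933 without sham female 4) and an entry on chromosome 15 with a log2 fold change of 0.51 (adjusted p = 0.0464), and their sum was 9.83 ± 0.553 FPKM in females and 11.02 ± 0.823 FPKM in males. Gpbp1l2 also has 2 entries, on chromosomes 2 and 20, both higher in females (1.26 ± 0.283, adjusted p = 0.0464, and 0.62, adjusted p = 0.0431). Sums of FPKM over entries of different length weigh their reads differently, and whether a locus or the division of its reads differed was not tested.

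**Figure D4:**
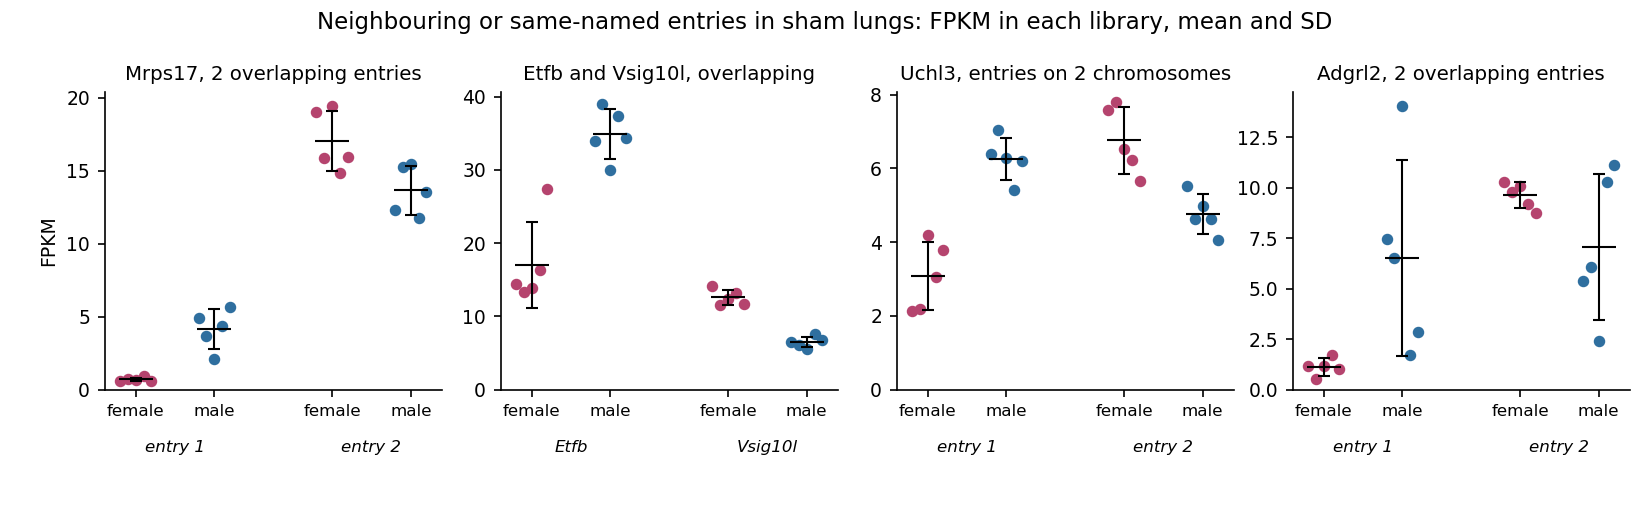
FPKM in each sham library of 4 pairs of table entries that overlap or share a name, with females left of males for each entry and black bars for the mean and SD (n = 5). In the pairs of Mrps17, Etfb with Vsig10l, and Uchl3, one entry has a lower and the other a higher mean in females, and in Adgrl2 the males spread in opposite directions. The second Mrps17 entry overlaps between the sexes and did not pass.

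A gene of the alpha-2u-globulins, urinary proteins that male rat liver secretes, was called lower in females. LOC298116, named after its values were seen, had 0.00778, 0.0228, 0, 0 and 0.0201 FPKM in females 1 to 5, against 2.42, 1.20, 7.82, 1.38 and 46.7 FPKM in males 1 to 5. Its adjusted p was 0.0189 (0.0603 without sham female 5). It met the expression limit through the males alone, so its lack of overlap was built in. It overlaps entries of the related Mup4 pseudogenes. Summed over the liver list, transcripts came to 170.3, 88.9, 77.4, 90.6 and 97.5 FPKM in females, against 165, 93.6, 192, 103 and 852 FPKM in males, and sham male 5 had the highest value of both. Of 15 liver genes, 14 were below 0 and 1 fell, the protease inhibitor Serpina1 (4.54, 6.56, 7.53, 8.14 and 7.45 FPKM in females, against 12.7, 12.7, 15.5, 12.1 and 28.3 FPKM in males, −1.24 ± 0.268, adjusted p = 0.0401, or 0.0888 without sham female 5). The median log2 fold change over the list was −2.92. At an unadjusted p under 0.05, 11 liver genes were lower and 1 higher, and DESeq2 had 6 falls and no rise. With the summed liver list as a covariate, 21 genes were called and 49 passed, and 12 fibrillar matrix genes fell. Without the 3 libraries rich in albumin transcripts, 21 fibrillar matrix genes fell.

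The same sex contrast in the 10 bleomycin libraries, which share no library with the sham comparison, passed fewer genes. There 13 autosomal genes were higher (0.0898%) and 7 lower (0.0484%) in females at an adjusted p under 0.05. Of the 56 genes called in sham lungs, 35 had the same sign in bleomycin lungs (48.5% of all genes did), 7 of the 10 higher and 28 of the 46 lower ones. None of the 56 passed in the bleomycin libraries with edgeR (at an unadjusted p under 0.05, 11 in the same and 5 in the opposite direction), and 9 passed in the same direction when all 20 libraries shared 1 fit. Without bleomycin male 4 there were 7 that passed in the same direction, without bleomycin female 1 there were 3, and without any other single bleomycin library none. Passing depends on the spread between animals as well as on the size of a difference. Mmp2 and Esm1, given below, differed by about as much in bleomycin as in sham lungs and did not pass there. The 46 genes lower in sham females had a median log2 fold change of −1.30 in sham and −0.23 in bleomycin lungs, beside 0.00 and −0.04 over all genes. The fibrillar matrix list had a median of −0.85 in sham and 0.03 in bleomycin lungs. Col1a1 averaged 334 ± 66.9 FPKM in bleomycin females and 413 ± 90.1 FPKM in bleomycin males (−0.33, adjusted p = 0.351), and Fn1 325 ± 31.2 FPKM in bleomycin females and 339 ± 57.8 FPKM in bleomycin males (−0.08, adjusted p = 0.783).

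The difference between the 2 sex contrasts was tested as an interaction, coded as the sex difference in bleomycin lungs minus that in sham lungs. It passed above 0 for 538 genes (3.72%) and below 0 for 330 (2.28%). Of the 56 called genes 24 passed, 23 of them lower in sham females with an interaction above 0. The called genes were chosen by the sham difference that the interaction subtracts, and that choice alone favours an interaction of the opposite sign, so nothing is read from this count. The 23 included Col1a1 (interaction 1.71, adjusted p = 0.0144), Fbn1 (1.69, 0.00406), Eln (1.92, 0.0343) and Col3a1 (1.18, 0.0227). For Mmp2 the difference was −1.04 in bleomycin lungs (adjusted p = 0.0763) and an interaction of 0.03 (adjusted p = 0.965), and Esm1 likewise had 1.78 (adjusted p = 0.0558) and an interaction of 0.02 (0.980).

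**Figure D5:**
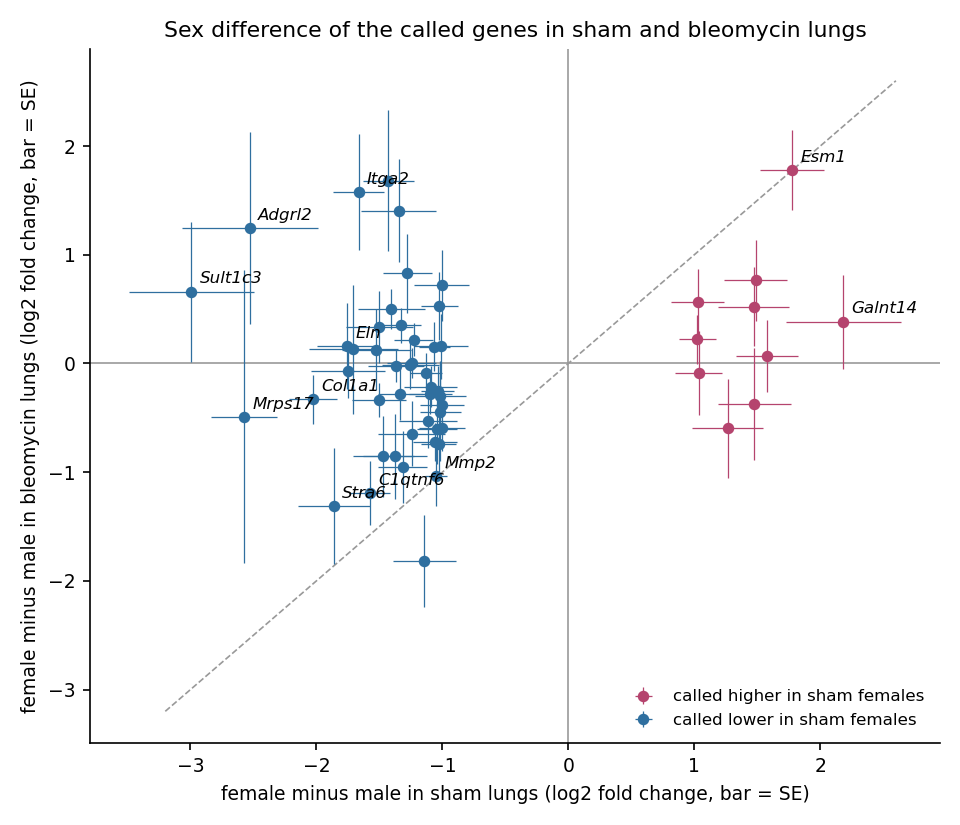
Log2 fold change of females minus males in sham lungs (horizontal) and in bleomycin lungs (vertical) for 55 genes called in sham lungs, LOC298116 left out for its scale, with bars for the SE and a dashed line of equality. Of all 46 genes lower in sham females, LOC298116 included, 28 are below 0 in bleomycin lungs too, with a median of −0.23 over the 46. Esm1 and Mmp2 lie on the dashed line.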

How the data were processed

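Lung RNA (RIN of at least 7.0) was made into poly(A) libraries with 15 amplification cycles and sequenced as 150-base read pairs on a NovaSeq 6000, per the labels' protocols. Reads were trimmed with Cutadapt 1.10, checked with FastQC 0.10.1, aligned with HISAT2 2.0 and assembled with StringTie 1.3.4, per the labels' protocols, which name Ensembl 112 and Rnor 6.0 together. The build behind the coordinates is therefore uncertain, and they are printed as the table gives them. The organism field says mouse, while the gene IDs and protocols are of rat. The authors deposited 1 table with whole-number counts and FPKM per gene and library, and low counts pile up at multiples of about 4, so that a count is not a single read pair.

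The deposited counts of the 10 sham libraries (68.6 to 85.3 M per library) were tested with edgeR 4.0.16 (TMM, robust quasi-likelihood, prior count 0.125, R 4.3.3), females minus males. P-values were adjusted by Benjamini-Hochberg over 15001 genes, and the 525 on X, Y and the mitochondrial chromosome were then left out. Levels are the deposited FPKM by the authors, and precision rests on 5 animals a sex. On simulated counts 86 of 100 genes changed by 1 on the log2 scale and 97 of 100 changed by 2 were recovered. These were independent negative binomial draws without outlying libraries or piled counts, and the changed genes averaged over 1 count per M. The rates therefore need not hold for the deposited counts. Figures and summaries used Python 3.11.15, pandas 2.3.3, scipy 1.17.1 and matplotlib 3.10.9.

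Alternatives were DESeq2 1.42.0, limma 3.58.1 (also voom), other scalings, filters, covariates, a replicate block, a fit of all 20 libraries and leaving out each library. Named genes were the 12 largest called rises and falls, the 8 rises and 8 falls with the smallest p, in each list the members ranked 1 to 4 by p, Fn1, Plk1, sex steroid receptors and markers of other organs. Others, among them list members given beyond the first 4, were named after their values were seen. The genes, the 44 lists and 4 added lists were chosen with earlier results of these data known, so counts over a list are descriptions. In the whole table, 145 symbols belong to more than 1 entry.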

Additional observations from a re-analysis of the deposited data

Results flagged for a closer look

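Among 72 groups of 5 sham libraries (36 named genes, females and males), 6 held a library whose gap to its nearest neighbour exceeded Dixon's 95% limit, and chance alone marks about 1 group in 20. Sham female 3 had 174 FPKM of Col3a1, against 94.6 to 116 FPKM in the other females. Sham female 5 had 6.95 FPKM of Hnrnph3, against 8.12 to 8.45 FPKM in the other females. Sham female 1 had 61.4 FPKM of Alb, against 0.364 to 11.3 FPKM in the other females, and sham male 5 had 333 FPKM, against 11.5 to 52.3 FPKM in the other males. Sham male 3 had 172 FPKM of Acta1, against 0.984 to 6.16 FPKM in the other males. Sham male 2 had 0.227 FPKM of Esr2, against 0 to 0.0578 FPKM in the other males, all under the expression limit.

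For 14 of the 36 genes the sex difference, females minus males, changed between bleomycin and sham lungs in edgeR's interaction test, with p adjusted over all genes. The change, bleomycin minus sham on the log2 scale, was above 0 for 11 of them. Most of the 36 were named for their sham difference, which the test subtracts, so the signs follow in part from that choice. It was 3.78 for Adgrl2 (adjusted p = 0.0496), 3.66 for Sult1c3 (0.0248), 3.25 for Itga2 (0.0158), 1.69 for Fndc1 (0.0249) and 1.10 for Plk1 (0.0243). Among genes of the matrix lists it was 1.92 for Eln (0.0343), 1.71 for Col1a1 (0.0144), 1.69 for Fbn1 (0.00406), 1.23 for Nid1 (0.0207), 1.18 for Col3a1 (0.0227) and 1.06 for Fn1 (0.0187). It was below 0 for Sgsm1 (−1.49, adjusted p = 0.0392), Vsig10l (−1.20, 0.0195) and Rps29 (−0.97, 0.0144), which had risen in sham females.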

How the results depend on the processing

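The 56 calls (10 higher, 46 lower) and 290 passing genes stayed within 1.5 times under other scalings, no robust estimation, no filter on low values, a fit on autosomal genes alone, counts divided by 4, and limma on log2(FPKM + 0.1). They moved further under the settings that follow. A limit of 2 FPKM left 4 called higher, and limma on log2(FPKM + 1) called 23 (1 higher, 22 lower). One fit over all 20 libraries called 33 (5 higher, 28 lower) and passed 60, and 9 called genes then passed in the same direction in bleomycin lungs. DESeq2 called 135 (26 higher, 109 lower) and passed 1178, 54.6% of them lower against 66.2% in edgeR, and limma-voom passed 642. With the mitochondrial share as covariate 19 were called higher and 826 passed, and with the liver list 21 were called (3 higher, 18 lower) and 49 passed. Without the 3 libraries rich in Alb transcripts 133 passed. Leaving out 1 library gave 30 to 117 called, 4 to 27 higher, 26 to 90 lower and 87 to 1123 passing, the extremes without sham males 5 and 1. In bleomycin lungs it gave 0 to 7 called genes passing in the same direction. The cause of these shifts was not tested. Of the fits for named genes, the sign turned only for Dcn (−0.20 to 0.13 over single left-out libraries) and Timp2 (−0.0081 to 0.14), neither of which passed. Replicate numbers were read from the sample titles. Deviations of same-numbered females and males correlated at 0.230, 0.196, −0.128, 0.0955 and 0.172. Of the 5 females 4 correlated best with the male of their own number, a hint of pairing from the data and not the design. What the numbers stand for was not tested. The replicate block called 28 (21 lower) and passed 138. Under it 11 fibrillar matrix, 6 basement membrane and 2 pericyte genes fell. Genes near the 0.5 FPKM limit rest on the fewest reads, which limits their precision.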

Other observations

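Of 11 mast cell and basophil genes, Gata2, a transcription factor also used by endothelium, rose (0.43 ± 0.0951, adjusted p = 0.0439, or 0.106 without sham female 4). The mast cell proteases and the IgE receptor did not pass. Mcpt1 had 6.28, 4.25, 1.20, 1.51 and 5.97 FPKM in females, against 5.20, 28.9, 5.73, 14.5 and 28.8 FPKM in males, and its adjusted p was 0.111. The groups overlapped, as they did for Cpa3 (3.31, 3.25, 4.86, 2.31 and 3.68 FPKM in females, against 6.96, 4.36, 2.42, 6.66 and 17.1 FPKM in males, adjusted p = 0.201).

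The genes of the rat class II molecule RT1-B varied widely between males. RT1-Ba had 9.17, 6.97, 7.60, 8.21 and 6.34 FPKM in females 1 to 5, against 37.5, 6.44, 8.67, 41.6 and 8.56 FPKM in males 1 to 5, and RT1-Bb had 8.94, 9.97, 9.54, 11.99 and 7.56 FPKM in females, against 27.3, 7.18, 8.61, 26.3 and 7.82 FPKM in males. Sham males 1 and 4 were the highest libraries for both genes, and the other 3 males lay within or near the female range. Neither gene passed the test between the sexes (adjusted p = 0.175 for RT1-Ba and 0.392 for RT1-Bb). The class II invariant chain Cd74 averaged 579.6 ± 69.4 FPKM in females and 518 ± 66.4 FPKM in males (adjusted p = 0.466).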
